A study of Homo sapiens with 16 samples.

Results

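The HOX cluster genes were examined as m6A targets in a pair of human prostate cancer cell lines. All protein-coding genes of the HOXA, HOXB, HOXC and HOXD clusters were taken from GENCODE release 44 (hg38), except that 1 further HOXB gene was not analysed here. This gave 38 genes of 20046 protein-coding genes. The C4-2B line is sensitive to the androgen receptor inhibitor enzalutamide, and MDV-R is a single resistant line that was derived from C4-2B by serial passage in that drug and is kept in it. RNA of both lines, labelled wild type and collected on day 3, was immunoprecipitated with an antibody against m6A (IP) and sequenced beside its input, with 4 IP and 4 input libraries per line. Each of the 8 IP libraries came as its own list of peaks called over input, and 36970 regions merged across the lists were given besides. Nothing in the labels said whether the 4 replicates of a line were separate cultures, so all p-values measure the spread between these libraries. The titles of the MDV-R libraries also carry the name T24R2, which may be that of another line. The cell line field of their labels was followed, and if the titles were right the MDV-R values would be those of that line.

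HOX genes encode homeodomain transcription factors that give cells their position along the body axis, and the genes of a cluster lie in the order in which they act from front to rear. Genes with the same number in different clusters are paralogues. HOXA13 and HOXD13, at the posterior end, pattern the limb and the genitourinary tract, from which the prostate arises. N6-methyladenosine (m6A) is the most common internal modification of mRNA. It is set by the METTL3 and METTL14 complex, usually in a sequence that holds GGAC or a close variant, and most often near the stop codon and in the last exon. A peak in these lists marks a stretch of RNA that the antibody enriched, and it does not give the modified base.

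The short windows that follow are shown because they are the GGAC nearest to the strongest summit in 7 of the regions on which the line comparison turns. Each has 21 nt of hg38 read 5′ to 3′ on the strand of the gene, with GGAC in capitals.
HOXA13, minus strand, chr7:27198306-27198326: attactaaGGACaaacggagg
HOXA5, minus strand, chr7:27142040-27142060: aagggcccGGACggcctacac
HOXA6, minus strand, chr7:27147594-27147614: agtctcccGGACaagacgtac
HOXA7, minus strand, chr7:27154951-27154971: gctgccgcGGACaaggccgac
HOXB6, minus strand, chr17:48596119-48596139: tgaggagcGGACtcacttgat
HOXB9, minus strand, chr17:48625790-48625810: ggctacggGGACaataaaatt
HOXC6, plus strand, chr12:54029663-54029683: tacggagcGGACcggaggcgc
The central A lay 1 nt from the strongest summit in HOXA7 and 11, 12 and 23 nt from it in HOXA6, HOXC6 and HOXB6. In HOXA5, HOXA13 and HOXB9 the distance was 29, 32 and 38 nt. In HOXC6 only the summits of C4-2B replicate 2 and MDV-R replicate 2 lay within 50 nt of the A. The others lay at 54029877 to 54029911. In HOXA13 only that of C4-2B replicate 3 did, with the others at 27198205 to 27198249. In HOXB9 only those of MDV-R replicates 3 and 4 did, with the others, all C4-2B lists among them, at 48625881 to 48626049. The window of HOXB6 is in its 3′UTR and the other 6 are in coding sequence. No GGAC lay within 50 nt of the strongest summit in other regions that matter here. These were both HOXA11 regions with a peak in all lists, HOXB3 and exon 1 of HOXC6. They also took in the 3′UTR region of HOXA13 and the region next to HOXA6. Of the 16 regions called in all lists whose strongest summit was exonic, 7 had a GGAC within 50 nt of it.

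Of the 38 genes, 24 held the summit of at least 1 peak in at least 1 list (63.2%), beside 57.7% of all protein-coding genes. Of these 24, 17 held one in all 8 lists, beside 55.0% of the protein-coding genes with a summit, and when the summit had to lie in an exon 12 of 23 did, beside 53.0%. The clusters were not filled alike. Summits fell in 10 of 11 HOXA genes, 5 of 9 HOXB genes, 7 of 9 HOXC genes and 2 of 9 HOXD genes. No list had a summit in HOXA2, HOXB1, HOXB2, HOXB4, HOXB5, HOXC5 or HOXC11. The same held for HOXD1, HOXD3, HOXD4, HOXD9, HOXD10, HOXD11 and HOXD12. By paralogue group, all 3 genes analysed of groups 6, 8 and 13 and both genes of group 7 held a summit, whereas neither gene of group 2 did. A gene without a peak may be unmethylated or too little expressed to be called, and the lists do not separate these.

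**Figure D1:**
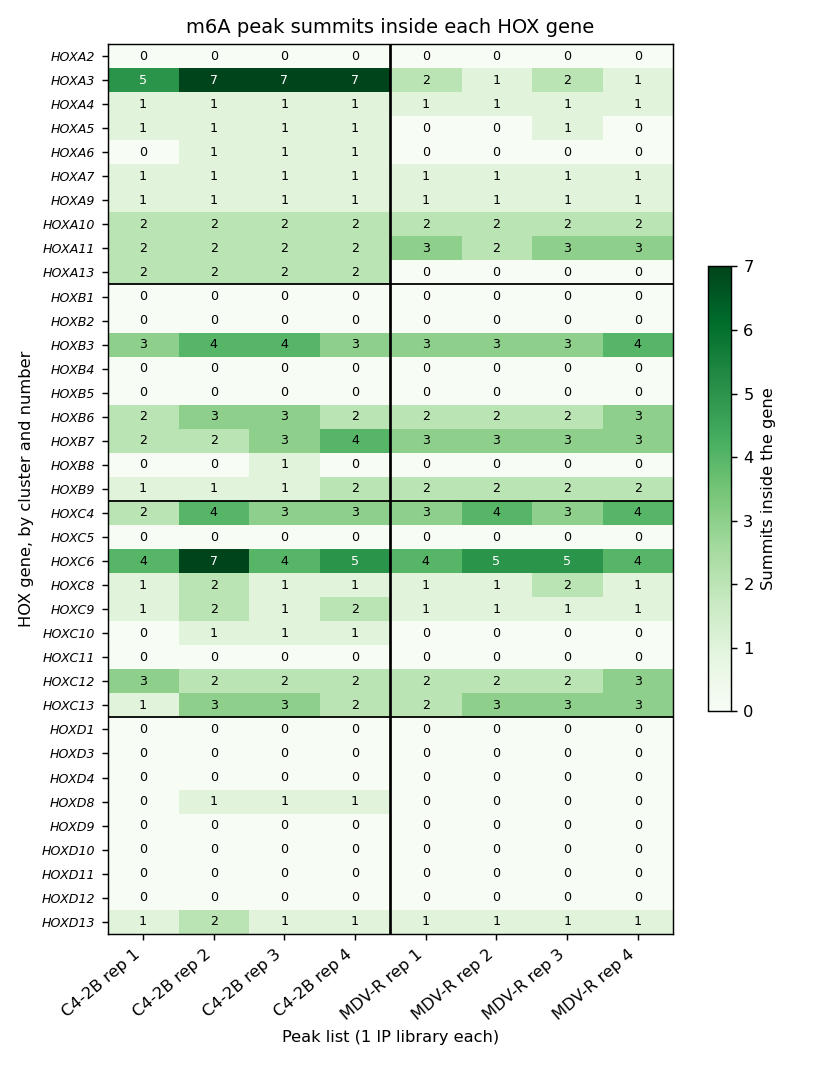
Number of peak summits inside each of 37 HOX genes (rows, by cluster and number) in each of the 8 peak lists (columns, C4-2B left and MDV-R right of the line). HOXA13 has 2 summits in every C4-2B list and none in any MDV-R list, and most HOXD rows are empty. HOXA3, HOXB3, HOXB7, HOXC4 and HOXC6 span neighbouring genes and HOXA9 overlaps HOXA10, so 1 summit can count for several rows. The summits counted for HOXA9 lie in no exon of that gene.

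Within these genes lay 43 merged regions, and every one was called in at least 1 list, that is, overlapped by a peak. A region called in all 8 lists was common: 18 of the 43 (41.9%), beside 25.9% of all 36076 merged regions called in any list. The lines were not alike in the rest. Regions called in 4 of 4 C4-2B lists and no MDV-R list made up 4 of 43 (9.30%), beside 1.22% of all called regions. The reverse pattern was seen in 0 of 43, beside 3.68% of all called regions. The lists differ in length, and with all lists at the length of the shortest these patterns held for 3 HOX regions beside 567 of all 19127 (2.96%) and for 1 HOX region beside 516 of them. In total 13 HOX regions were called in some C4-2B list and in no MDV-R list (30.2%, beside 13.3% of all), and 0 in some MDV-R list and no C4-2B list (0%, beside 28.3% of all). All 4 regions called in C4-2B alone belonged to the HOXA cluster. Two-sided Fisher's exact tests of the calls could not settle any single region, since 4 lists against 4 allow no p below 0.0286. After adjustment over all called regions 0 regions passed and the lowest adjusted p was 0.584, while 1766 of all regions and 4 HOX regions had an unadjusted p of 0.0286. Over genes 0 passed as well (lowest adjusted p 0.759), with 436 genes and 1 HOX gene at that unadjusted p.

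The HOX summits per list showed the same split. C4-2B replicates 1 to 4 held 26, 38, 35 and 35 HOX summits, or 33.5 ± 5.20 (SD, n = 4), and MDV-R replicates 1 to 4 held 24, 24, 27 and 27, or 25.5 ± 1.73 (SD, n = 4). The ranges overlapped only through C4-2B replicate 1, whose list was also the shortest, with 13191 peaks against 23254 to 30645 in the other 7. Per 1000 summits in protein-coding genes the C4-2B lists held 2.07 to 2.56 HOX summits and the MDV-R lists 1.17 to 1.46. Most of this difference was in the HOXA cluster, with 12, 15, 15 and 15 summits in C4-2B and 8, 6, 9 and 7 in MDV-R. The HOXB counts were 5, 6, 7 and 7 in C4-2B and 6, 6, 6 and 7 in MDV-R. The HOXC counts, 8, 14, 11 and 11 in C4-2B and 9, 11, 11 and 12 in MDV-R, also overlapped. HOXD genes held 1 to 3 summits in the C4-2B lists and 1 in each MDV-R list.

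HOXA13 was the 1 HOX gene with summits in all lists of one line and in none of the other. All 4 C4-2B lists had 2 summits in this gene and no MDV-R list had one, a pattern found in 1.15% of the 11576 protein-coding genes with a summit. The reverse was found in 0 HOX genes, beside 2.62% of these genes. The taller region, chr7:27197626-27198622, covers the end of the coding sequence in exon 2 of 2, and its edge overlaps the non-coding gene HOTTIP. The strongest summit of this region, that of C4-2B replicate 3 at 27198348, lay 147 nt before the stop codon. In replicates 1, 2 and 4 the summits, at 27198249, 27198207 and 27198205, lay nearer to the stop codon. Its signal is given here as the IP pileup, the number of IP fragments stacked at the summit divided by the average background of that library. In C4-2B replicates 1 to 4 the IP pileup was 241, 282, 283 and 309, or 279 ± 28.1 (SD, n = 4), from 88 to 97 IP fragments. No other HOX region that MDV-R lacked came near this height. A pileup equal to this mean exceeded 89.6% to 91.9% of all peaks in the 4 MDV-R lists, and the lowest pileup called there was 11.7 to 13.4. The other region, chr7:27194833-27195305, lies in the 3′UTR 3142 nt past the stop codon and had an IP pileup of 42.3, 35.7, 48.2 and 62.5 in the C4-2B lists. No level can be given for MDV-R, because the lists hold values at peaks only.

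The remaining regions called in 4 C4-2B lists and no MDV-R list were at HOXA5 and next to HOXA6, where long transcripts of HOXA3 span both genes. HOXA5 is known from lung development. Its region, chr7:27141837-27142307, had its summit in the coding part of exon 2 of 2, 241 nt before the stop codon, with an IP pileup of 67.1, 92.1, 54.7 and 73.0 in the C4-2B lists. In an intron of HOXA3, with its summits just beyond the 5′ end of HOXA6, lay the region chr7:27150359-27150927, which overlaps an exon of the antisense gene HOXA-AS3 and had an IP pileup of 117, 146, 125 and 142. The lists carry no strand, so reads of HOXA-AS3 and of HOXA3 cannot be told apart there. Its neighbour chr7:27143028-27146131 was called in 4 C4-2B lists at a mean of 135 ± 12.6 (SD, n = 4) and in 1 MDV-R list at 20.4.

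A further 5 regions were called in C4-2B replicates 2, 3 and 4 and nowhere else, a pattern shown by 1.77% of all called regions. All 5 had their strongest summit in coding sequence, for example of HOXA6, HOXC10 and HOXD8. In HOXC10 only 1 of the 3 lists had its summit in an exon. HOXA6 was the tallest of the 5 regions, with an IP pileup of 72.6 ± 2.69 (SD, n = 3), and HOXD8 the lowest at 31.8 ± 6.47 (SD, n = 3). Without the short list of C4-2B replicate 1, the regions called in C4-2B alone thus numbered 9 in place of 4 and the genes 4 in place of 1 (HOXA6, HOXA13, HOXC10 and HOXD8). The counts over all rose as well, to 1079 of 36029 regions in place of 439 of 36076, and to 238 of 11567 genes in place of 133 of 11576. In the other direction, HOXB9 had a region in coding sequence, chr17:48622909-48623347, that all 4 MDV-R lists called at 117, 89.2, 99.3 and 97.0 and that only replicate 4 of C4-2B called, at 66.0.

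**Figure D2:**
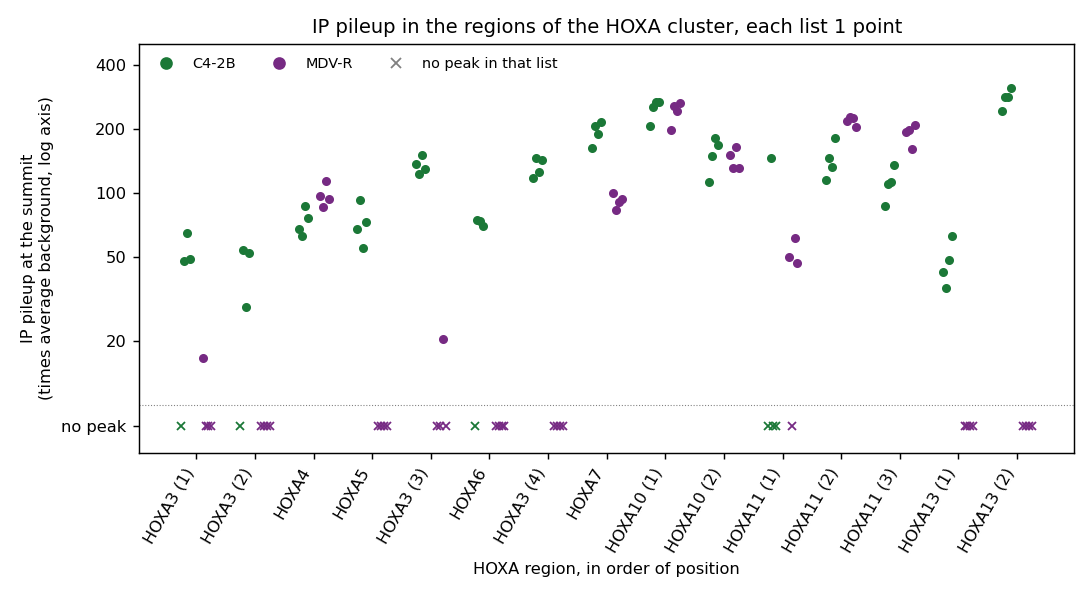
IP pileup at the summit (times the average background, log axis) in 15 regions of the HOXA cluster, in order of position, with 1 point per list and a cross where a list had no peak. Regions of a gene are numbered by position. In HOXA3, HOXA5, HOXA6 and HOXA13 nearly all MDV-R lists have crosses, whereas HOXA4, HOXA7, HOXA10 and the last 2 regions of HOXA11 have a peak in all 8 lists. The C4-2B point in the first HOXA11 region is a broad peak shared with the next region, and 3 points of the last HOXA11 region have summits outside the gene.

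In the 18 regions called in all 8 lists, the levels themselves could be compared. In 11 of them the summits of the 8 lists lay within 100 nt of each other, and in 1, at HOXA11, some lay outside the gene. In the rest the summits spread over 159 nt in HOXA4, 211 nt in HOXB9, 232 nt in exon 2 of HOXC6 and 279 nt in HOXB3. The spread was 340 nt in the coding region of HOXB6 and 801 nt in HOXC13. In these the lists may not measure the same site. Over the lists, the mean IP pileup of the 18 regions ran from 43.4 in HOXB3 to 301 in HOXB7. limma was fitted to log2 IP pileup over all 9171 such regions with a value in every list, with Benjamini-Hochberg adjustment over all of them. By this test 4 HOX regions were higher in MDV-R, beside 20.5% of all regions, and 6 were lower, beside 14.9% of all regions. Lack of overlap between the lines, given below for single regions, was not counted over all regions. The median log2 difference, MDV-R minus C4-2B, was -0.09 over the 18 regions and 0.06 over all. With each list centred on its median, 4 HOX regions were higher and 7 lower, and the split over all regions turned from 1882 higher and 1365 lower to 2373 higher and 2602 lower. IP pileup rises with the amount of an RNA as well as with its methylated share, and in bulk RNA fewer expressing cells and less RNA per cell cannot be told apart.

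**Figure D3:**
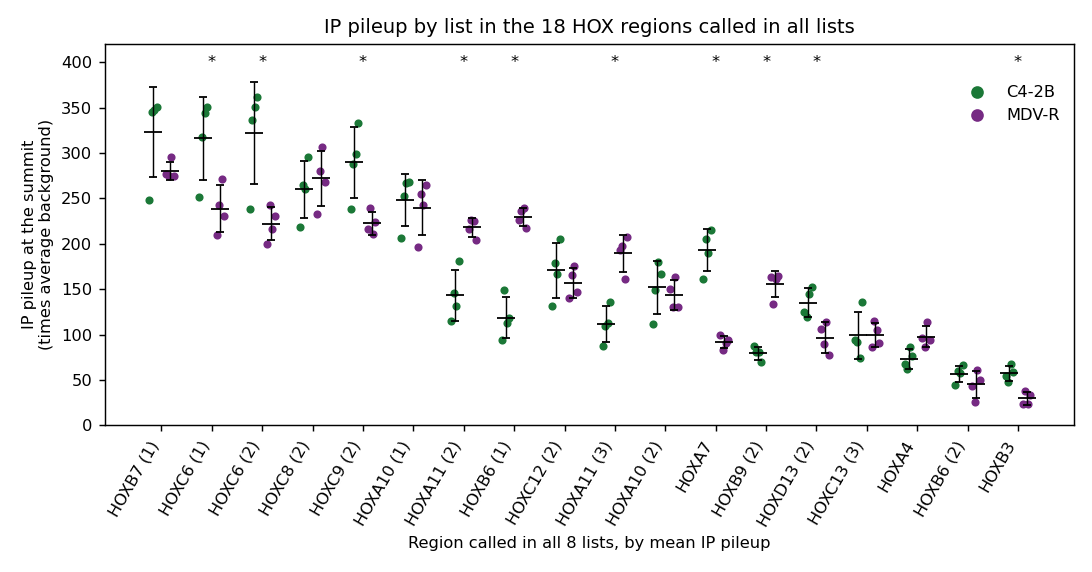
IP pileup at the summit (times the average background) in the 18 HOX regions called in all 8 lists, ordered by their mean. Points are single lists, bars the mean ± SD of 4 lists per line, and asterisks mark an adjusted p under 0.05 in limma. HOXB6 (1), HOXB9 (2) and both HOXA11 regions are higher in all 4 MDV-R lists than in any C4-2B list, and HOXA7, HOXB3 and HOXD13 (2) are lower. How often the lines do not overlap over all regions was not counted.

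In the HOXA cluster, HOXA7 fell and HOXA11 rose in MDV-R. The HOXA7 region, chr7:27154493-27155312, has its summit 48 nt before the stop codon, and it overlaps an exon of HOXA-AS3. As the lists carry no strand, reads of HOXA7 and of HOXA-AS3 cannot be told apart there. The IP pileup was 162, 205, 190 and 215 in C4-2B replicates 1 to 4 and 99.9, 82.9, 90.6 and 93.7 in MDV-R replicates 1 to 4. Every MDV-R list was below every C4-2B list, by 2.10-fold on average (log2 difference -1.07 ± 0.17 SE, limma adjusted p = 1.90e-08). HOXA11, which takes part in limb and uterine development, had 2 such regions. In the coding part of the last exon, chr7:27182565-27183274, 98 nt before the stop codon, the pileup was 114, 146, 132 and 181 in C4-2B and 216, 226, 225 and 204 in MDV-R. This was a 1.54-fold rise with no overlap of the lines (log2 difference 0.63 ± 0.16 SE, limma adjusted p = 0.000548). The other, chr7:27184498-27189283, begins in the first exon and runs on beyond the gene, and its strongest summit also lies in an exon of HOXA11-AS. Reads of HOXA11 and of HOXA11-AS cannot be told apart there. The strongest peaks of this region per list measured 87.0, 110, 113 and 135 in C4-2B and 193, 198, 161 and 207 in MDV-R. However, 3 of these 8 summits (C4-2B replicates 1 and 3 and MDV-R replicate 3) lay outside HOXA11, up to 4040 nt from the others, so these values (log2 difference 0.78 ± 0.17 SE, limma adjusted p = 3.91e-05) mix sites. With the strongest peak inside the gene taken in every list, a choice made after seeing the data, the pileup was 94.5, 110, 135 and 135 in C4-2B and 193, 198, 207 and 207 in MDV-R. The lines again did not overlap (log2 difference 0.78 ± 0.17 SE, limma adjusted p = 2.49e-05).

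The 3 HOXA regions between and beside these did not pass the test. HOXA10 takes part in uterine patterning, and its region at chr7:27171831-27172425 also lies within HOXA9, which is known for its role in leukaemia. It measured 206, 253, 267 and 268 in C4-2B and 196, 255, 242 and 264 in MDV-R. The second HOXA10 region, chr7:27175837-27176367, measured 112, 149, 180 and 167 in C4-2B and 150, 131, 164 and 131 in MDV-R. In both the lines overlapped (log2 difference -0.05 ± 0.14 SE and -0.06 ± 0.17 SE, limma adjusted p = 0.809 and 0.803). HOXA4, in its 3′UTR at chr7:27128769-27129548, measured 67.1, 62.4, 86.8 and 76.4 in C4-2B and 96.5, 86.1, 114 and 93.7 in MDV-R, with a log2 difference of 0.42 ± 0.20 SE (limma adjusted p = 0.0972).

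In the HOXB cluster, HOXB6 and HOXB9 rose and HOXB3 fell. HOXB6 has a region in its 3′UTR, chr17:48595777-48596782, with an IP pileup of 94.5, 149, 113 and 118 in C4-2B and 226, 236, 240 and 218 in MDV-R. The 2 ranges were far apart, with a 1.96-fold rise (log2 difference 0.97 ± 0.16 SE, limma adjusted p = 3.75e-08). Another region of the same gene, chr17:48597739-48598501 in the coding sequence, measured 44.8, 59.4, 57.9 and 66.0 in C4-2B and 43.3, 25.5, 61.3 and 50.2 in MDV-R and did not pass (log2 difference -0.40 ± 0.24 SE, limma adjusted p = 0.203). HOXB9, which acts towards the rear of the trunk, measured 87.0, 80.2, 80.4 and 69.5 in C4-2B and 163, 134, 161 and 164 in MDV-R at chr17:48625627-48626756. This rise of 1.96-fold (log2 difference 0.97 ± 0.19 SE, limma adjusted p = 2.22e-06) stood beside the other HOXB9 region, which more MDV-R than C4-2B lists called.

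HOXB3, an anterior gene that acts in the hindbrain, had its region in the last exon at chr17:48550036-48551164. The pileup was 54.7, 47.6, 67.5 and 59.1 in C4-2B and 23.3, 38.2, 23.4 and 33.5 in MDV-R. All MDV-R lists were lower, by 1.96-fold on average (log2 difference -0.97 ± 0.26 SE, limma adjusted p = 0.00105). HOXB7 had the tallest region of all, chr17:48607666-48608167, 94 nt before the stop codon. It measured 249, 345, 347 and 351 in C4-2B and 276, 274, 295 and 274 in MDV-R, and C4-2B replicate 1 lay below all MDV-R lists. The difference did not pass the test (log2 difference -0.19 ± 0.14 SE, limma adjusted p = 0.286) but did without that replicate (-0.31, limma adjusted p = 0.00154).

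In the HOXC cluster the regions of HOXC6 and HOXC9 fell by less. HOXC6, a gene often found raised in prostate tumours, had 2 regions that also lie within HOXC4. The one in exon 2, chr12:54029412-54030567, measured 239, 336, 350 and 361 in C4-2B and 200, 242, 216 and 231 in MDV-R. C4-2B replicate 1 lay within the MDV-R range, and the other 3 C4-2B lists were above it, a fall of 1.43-fold (log2 difference -0.52 ± 0.14 SE, limma adjusted p = 0.00137). At exon 1, chr12:54028331-54028881, the values were 251, 318, 344 and 351 in C4-2B and 210, 242, 272 and 231 in MDV-R, a fall of 1.32-fold (log2 difference -0.40 ± 0.14 SE, limma adjusted p = 0.0161). HOXC9 fell by 1.30-fold at chr12:54002189-54002900, with 239, 288, 299 and 334 in C4-2B and 216, 239, 210 and 224 in MDV-R (log2 difference -0.37 ± 0.14 SE, limma adjusted p = 0.0291). These last 2 calls depended on single libraries. HOXC6 at exon 1 lost its call without C4-2B replicate 2 or 3 or MDV-R replicate 1 or 4 (log2 difference -0.39 to -0.34, limma adjusted p up to 0.0993). Of the 8 fits without 1 library, HOXC9 kept it in those without C4-2B replicate 1 or MDV-R replicate 2, and in the others the limma adjusted p reached 0.103, with a log2 difference of -0.46 to -0.30 over all 8.

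HOXC8, HOXC12 and HOXC13 had overlapping levels. HOXC8 measured 219, 265, 260 and 295 in C4-2B and 233, 280, 307 and 268 in MDV-R at chr12:54010965-54011444. HOXC12 measured 132, 178, 167 and 205 in C4-2B and 140, 166, 175 and 147 in MDV-R at chr12:53956107-53958535. HOXC13, which is needed for hair and nails, measured 94.5, 92.1, 74.0 and 135 in C4-2B and 86.6, 115, 105 and 90.4 in MDV-R at chr12:53944829-53946168. Their log2 differences were 0.07 ± 0.14, -0.11 ± 0.16 and 0.03 ± 0.19 (SE), and none passed the limma test (adjusted p = 0.750, 0.650 and 0.929). HOXD13, the only HOXD gene with a region in all lists, measured 124, 119, 145 and 153 in C4-2B and 107, 89.2, 114 and 77.0 in MDV-R at chr2:176094229-176094822. It fell by 1.41-fold with no overlap (log2 difference -0.49 ± 0.18 SE, limma adjusted p = 0.0249), a call lost without C4-2B replicate 3 or 4 or MDV-R replicate 2 or 4 (limma adjusted p up to 0.145). Its strongest summit lies in the intron, while 57.7% of the region is exonic.

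Against the paralogues, the group 13 genes thus ran from no MDV-R peak in HOXA13 through a fall in HOXD13 to overlapping levels in HOXC13. In group 9, HOXB9 rose while HOXC9 fell, and in group 6 the 3′UTR of HOXB6 rose while HOXC6 fell and HOXA6 had no MDV-R peak. In group 7, HOXA7 fell, whereas HOXB7 did not pass the test. Differences between paralogues were not tested.

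The local background at the same summits comes mainly from input reads around the peak, and it moves with the amount of the RNA. By limma 0 HOX regions passed in it in either direction (1 higher and 2 lower at an unadjusted p under 0.05), beside 1.80% of all regions higher and 14.3% lower in MDV-R. The median log2 difference was -0.48 over the 18 HOX regions and -0.49 over all 9171. Single regions ranged from -1.06 in HOXA10 to 1.13 in HOXA4, with standard errors of 0.36 to 0.53. HOXA7, whose IP pileup fell, had a local background of 33.3, 9.77, 13.8 and 16.4 times the average in C4-2B and 7.25, 6.07, 11.3 and 8.66 in MDV-R, a log2 difference of -1.02 ± 0.45 SE (limma adjusted p = 0.111). HOXB9, whose IP pileup rose, had 5.85, 2.44, 5.51 and 9.85 in C4-2B and 5.06, 2.02, 9.38 and 2.66 in MDV-R, a difference of -0.40 ± 0.53 SE (limma adjusted p = 0.630). With each list centred on its median, 1 HOX region was higher, and the split over all regions went from 165 higher and 1314 lower to 593 higher and 892 lower. Without MDV-R replicate 3, 7 HOX regions were lower, beside 3185 of all. Its standard errors were more than those of the IP pileup (0.14 to 0.26), and differences as large as -1.06 and 1.13 did not pass. Changes of the size called in IP pileup could therefore be missed in the background of these regions, and the absence of calls does not show that it was equal. The ratio of input to IP depth, inferred from the peak statistics and not given in the lists, was 0.747 to 1.22 in C4-2B and 1.56 to 3.15 in MDV-R. The part of this ratio in the background values was not tested.

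**Figure D4:**
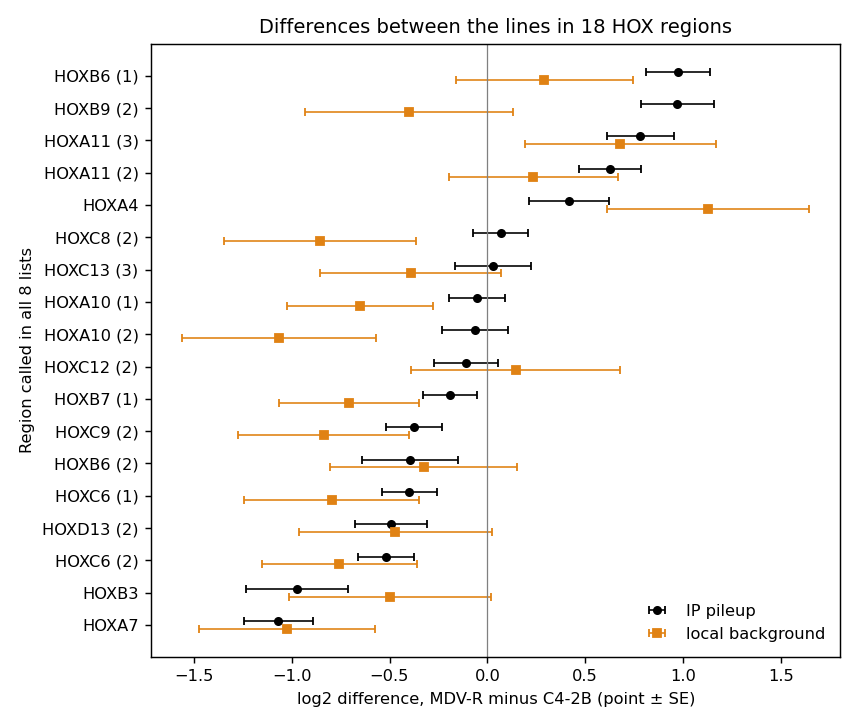
Log2 difference between the lines, MDV-R minus C4-2B, in IP pileup (circles) and in local background (squares) for the 18 HOX regions called in all 8 lists, with the SE of limma as bars. IP pileup differs by -1.07 in HOXA7 to 0.97 in HOXB6 (1) with SEs of 0.14 to 0.26, and the local background has wider bars.

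Fold enrichment, the ratio of IP to local background given in the lists, put both together. Of the HOX regions 1 was higher in MDV-R by limma, beside 3.02% of 9327 regions, and 0 were lower, beside 0.214% of them. At an unadjusted p under 0.05, 2 were higher and 0 lower. Besides the region that passed, these took in the 3′UTR of HOXB6 (log2 difference 0.74 ± 0.36 SE, limma adjusted p = 0.182). The region that passed was HOXB9, with 9.84, 15.4, 9.58 and 5.48 in C4-2B and 19.8, 26.3, 13.3 and 27.9 in MDV-R. The ranges overlapped between C4-2B replicate 2 and MDV-R replicate 3, and the rise was 2.22-fold (log2 difference 1.15, limma adjusted p = 0.0460). The median log2 difference was 0.30 over the HOX regions and 0.44 over all regions. With standard errors of 0.36 in the HOX regions, changes of the size called in IP pileup could be missed here too. Relative to the median of each list, HOXB9 was higher by 0.75 and no longer passed (limma adjusted p = 0.18), and the split of calls over all regions went from 282 higher and 20 lower to 84 higher and 165 lower. The HOXB9 call was also lost in 6 of 8 fits without 1 library and was kept without C4-2B replicate 2 or MDV-R replicate 3 (limma adjusted p = 0.0048 to 0.235 over its alternatives). It was also lost when summits had to lie inside a protein-coding gene (limma adjusted p = 0.0542).

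Beyond the comparison of the lines, the HOX summits shared a place in the transcript. Of the HOX summits in exons, 68.0% ± 5.43 (SD, n = 8 lists) lay within 400 nt of the stop codon of the representative transcript, beside 41.0% ± 1.18 of exonic summits in all protein-coding genes. Both lines showed this: the share was 67.6% ± 7.03 (SD, n = 4) for C4-2B and 68.5% ± 4.33 (SD, n = 4) for MDV-R. The last exon held 71.4% ± 5.57 of them, beside 62.1% ± 2.47 in all genes. These are short genes. In 21 of the 24 with a summit the representative transcript has 2 exons, and its median spliced length was 2266.5 nt, beside 9 exons and 3553 nt in the 11576 genes with a summit. Coding sequence held 66.7% ± 4.08 of HOX summits in C4-2B and 63.8% ± 1.94 in MDV-R, beside 41.8% ± 4.27 and 38.6% ± 1.59 in all genes (SD, n = 4 each). The share in 3′UTRs was lower, at 10.8% ± 3.41 and 16.7% ± 3.72, beside 21.9% and 21.1% in all genes.

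**Figure D5:**
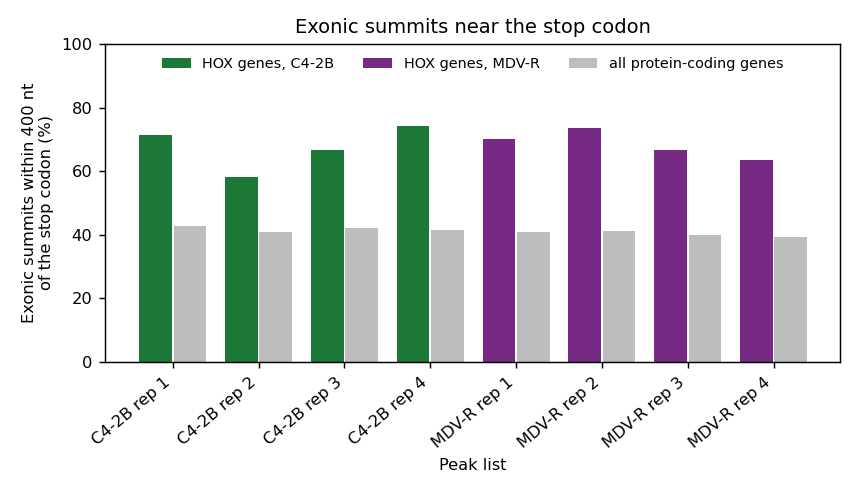
Share of exonic summits within 400 nt of the stop codon (percent) in each peak list, for HOX genes (coloured by line) and for all protein-coding genes (grey). The HOX share runs from 58.1% to 74.1% and is above that of all genes, 39.1% to 42.9%, in all 8 lists.

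The share of summits with a GGAC nearby was close to that of all genes. The letters GGAC were searched within 50 nt of each exonic summit, on the strand that is transcribed and on the other strand as a reference. GGAC is a common form of the m6A consensus, and its close variants were not searched. C4-2B lists had GGAC on the transcribed strand at 47.8% ± 3.39 (SD, n = 4) of HOX summits, beside 47.8% of summits in all genes. MDV-R lists had it at 44.6% ± 14.2 (SD, n = 4), beside 46.9%. On the other strand the HOX share over all lists was 22.4% ± 7.42 (SD, n = 8), beside 27.8% ± 0.981 in all genes. A share of 20 to 33 summits per list moves by several percent with each summit.

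HOX proteins bind DNA with TALE homeodomain cofactors, and 8 of these 9 genes had a summit in an exon in some list. PBX2 and PKNOX1 had one in all 8, MEIS2 in none, and no cofactor was called in 4 lists of one line and 0 of the other. MEIS3 came nearest, with exonic summits in 0 C4-2B and 3 MDV-R lists, but with introns counted it had a summit in all 8 lists. Among 18 non-coding genes of the clusters, 11 had no exonic summit in any list, HOTAIR among them. HOXA-AS3 and HOXA11-AS, which overlap HOXA7 and HOXA11, had them in all 8 lists, and HOTTIP, beside HOXA13, in 3 C4-2B lists and 0 MDV-R lists. Without strand, a summit where such genes overlap can belong to either, so the same peaks may be counted for both. Both lines carried the marks of luminal prostate cells: KLK2, SLC45A3 and STEAP2 had an exonic summit in all 8 lists, KLK3, TMPRSS2 and FOLH1 in all but C4-2B replicate 1, and TRPM8 in none. None of 10 urothelial markers had a summit in an exon, but with introns counted, as for the HOX genes, UPK2 had one in all 8 lists and UPK3A in 6.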

How the data were processed

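Per the labels and methods, alignment to hg38 used STAR 2.7.0, SAMtools 1.10 left uniquely mapped reads without duplicates, and MACS2 3.0.0a6 compared every IP library with the matching input. The deposited lists, as made by the authors, give positions (other), a score, the fold enrichment as a ratio, and −log10 p and −log10 q of each peak, and the merged list gives positions only. The lowest −log10 q per list was 2.00 to 2.11. Whole IP fragments and the local background were recovered from fold enrichment and −log10 p, within 0.02 fragments for 97.6% to 100% of peaks per list, and for all HOX peaks. At wrong scales 2.67% to 5.63% came out whole. The lists do not give absolute depth, because the shortest peak (239 to 293 nt) shows another fragment length than the stated one. Pileup and background were therefore divided by each library's average background, read from the low end of its recovered local background values, whereas scaling to sequencing depth had been planned. In C4-2B replicate 1 the recovered IP was scaled down to the input, by 0.747. In the other lists the input was scaled to the IP. The lists hold 13191 to 30645 peaks, with a median of 22 to 44 IP fragments at the summit, which limits the precision.

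A region was called where a peak overlapped it by at least 1 bp, and its strongest peak by −log10 p gave the values. Calls were tested with Fisher's exact test, and levels with limma 3.58.1 (R 4.3.3, eBayes with trend, adjusted p under 0.05). limma was tested on simulated data. The representative transcript was the canonical one, or else that with the longest coding sequence. GENCODE 44 was used here and not the release of the authors. Values per list are given for members with a region in all 8 lists, and calls for those called in 4 lists of one line and 0 of the other. The members, the lists and the tests were chosen with earlier results of these data known. Alternatives are listed after the report. Some items are included in counts but not reported here.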

Additional observations from a re-analysis of the deposited data

Results flagged for a closer look

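Among 50 groups of 4 lists, 6 held a list set apart from the other 3 by the size of its gap. Chance sets apart about 1 in 20 groups of continuous, normally distributed values. This rate does not hold for counts, where 3 tied lists set the other apart whatever its distance, as in the HOXA and HOXB summits. C4-2B replicate 1 was apart in 3 of the 6 groups: its IP pileup in HOXB7 was 249 against 345 to 351, its HOX summits per 1000 summits in protein-coding genes were 2.56 against 2.07 to 2.10, and its HOXA summits were 12 against 15. Over the 18 regions called in all lists it was the lowest C4-2B list in 13, at a median of 76.3% of the mean of the other 3. The remaining 3 were in MDV-R: replicate 3 in HOXB7 (295 against 274 to 276), replicate 2 in HOXB9 (134 against 161 to 164) and replicate 4 in HOXB summits (7 against 6).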

How the results depend on the processing

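Of the 10 HOX regions called for IP pileup, 7 kept the call in all 12 alternatives (HOXA7, both HOXA11 regions, HOXB3, the 3′UTR of HOXB6, HOXB9 and exon 2 of HOXC6), and HOXC9, the first HOXC6 region and HOXD13 lost it without single libraries. HOXB7 gained it without C4-2B replicate 1 and with centred lists (-0.26). Lists cut to equal size left 1 region called in MDV-R alone, and over all regions 567 in C4-2B alone (439 otherwise) and 516 in MDV-R alone. With centred lists 0 regions were higher in fold enrichment and 1 in local background, and with regions called in at least 3 lists of each line 0 were higher in fold enrichment. With summits inside a protein-coding gene, an alternative chosen after seeing the data, 0 were higher in fold enrichment as well, and 4 higher and 6 lower in IP pileup. A window of 25 nt gave GGAC at 26.8% of summits in C4-2B and 27.3% in MDV-R. Leaving out each library in turn gave 4 to 9 regions and 1 to 4 genes called in C4-2B alone, and 0 to 1 regions in MDV-R alone. It gave 0 to 2 regions higher in fold enrichment, 3 to 7 lower in IP pileup (3 without C4-2B replicate 3 or MDV-R replicate 4, 7 without C4-2B replicate 1) and 0 to 7 lower in local background (7 without MDV-R replicate 3). Genes called in C4-2B alone were 2 without MDV-R replicate 3, and regions in MDV-R alone 1 without C4-2B replicate 4. The sign of values that did not pass turned in HOXC13 (-0.043 with centred lists, -0.10 to 0.19 without 1 library), HOXC8 (-0.0041 with centred lists, -0.012 to 0.14), and the HOXA10 regions (-0.14 to 0.039 and -0.20 to 0.025 without 1 library). The cause was not tested. The HOX genes with a summit in all lists were 12 with exonic summits and 13 with lists of equal size, against 17. Over all regions, calls of higher fold enrichment numbered 282, and 19 to 2052 without 1 library (2052 without MDV-R replicate 3). Calls of lower fold enrichment numbered 20, and 3 to 72. Lower IP pileup was called in 1365 regions, 2602 with centred lists, 2159 with at least 3 lists of each line and 2533 without C4-2B replicate 1. Higher local background was called in 165 regions and in 93 without MDV-R replicate 1. Lower local background was called in 1314 and in 633 to 3185 without 1 library. Regions called in MDV-R alone were 1327, and 2048 without MDV-R replicate 3.

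Same-numbered replicates did not deviate together (correlation of deviations -0.07 to 0.03 in fold enrichment, -0.07 to 0.04 in IP pileup, -0.02 to 0.03 in local background). Not every library matched its own number best, though in IP pileup replicates 1 and 4 did. No pairing by number was seen, but 4 libraries per line are too few to exclude it. With the replicate block 4 HOX regions were higher and 6 lower in IP pileup, 1 higher in fold enrichment and 0 in local background, as without it.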
